A study of Homo sapiens with 10 samples.

Results

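A set of 10 genes of pericellular matrix breakdown was examined in PC3, a human prostate cancer cell line, before and after a change between epithelial and mesenchymal state. They were the matrix metalloproteinases MMP1, MMP2, MMP7, MMP10, MMP13 and MMP14, the tissue inhibitors TIMP1 and TIMP2, the urokinase gene PLAU and its receptor gene PLAUR. The genes were chosen by name, with earlier results of these data known, and all 10 were found among the 23170 gene entries of the deposited tables. RNA-seq had been performed on 10 samples of 4 lines. PC3-Epi (2 samples) consisted of colonies with an epithelial shape, selected after the cells had received a luciferase vector. PC3-EMT14 (3 samples) was the mesenchymal line isolated from a co-culture of PC3-Epi with macrophages, which had been grown from blood monocytes and treated with IL-4. The other lines were PC3-EMT14 cells transduced with a lentivirus and then selected, PC3-EMT14-OVOL1 (3 samples) for the zinc finger transcription factor OVOL1 and PC3-EMT14-OVOL2 (2 samples) for its relative OVOL2. Each line was thus 1 selected population, all of them carried the luciferase vector of PC3-Epi, and the labels name no empty vector for the PC3-EMT14 samples. The OVOL constructs were not alike. OVOL2 was cloned into a lentiviral plasmid that added a V5 tag, and OVOL1 was bought as an overexpression construct.

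Metalloproteinases are zinc enzymes that are made as inactive proenzymes. MMP1 and MMP13 are secreted collagenases, MMP10 is a stromelysin, MMP7 (matrilysin) is a small enzyme typical of glandular epithelium, and MMP2 is a gelatinase. MMP14, also called MT1-MMP, stays in the cell membrane, where it cleaves collagen and activates pro-MMP2 in a complex that contains TIMP2. Urokinase, bound to its receptor uPAR at the cell surface, turns plasminogen into plasmin, a serine protease that breaks down fibrin and can activate several pro-MMPs. Its activity is limited by serpins, among them PAI-2 (SERPINB2). In carcinoma this system has been studied mainly for its part in invasion.

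Values are FPKM, fragments scaled to transcript length and to a measure of library size, which allow levels of different genes to be compared per length. The authors' software pooled the samples of a line into 1 value, so no value below has an SD, the depth of each sample is unknown, and no difference was tested. Each comparison had its own table and its own normalization. A gene was counted as higher or lower where its 2 values in a table differed at least 2-fold and the larger was at least 1 FPKM. A level in PC3-EMT14 is given from the table with PC3-Epi unless another is named. The PC3-EMT14 levels of the members differed by at most 1.03-fold between its 3 tables. In bulk RNA, fewer expressing cells and less RNA per cell cannot be told apart.

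The members MMP7, MMP10, MMP1 and MMP13, lie on the minus strand of chromosome 11 in a cluster that spans 102391239 to 102826463 (hg19) and holds 9 gene entries, all of them MMP genes. The upstream sequences of MMP10 and MMP7 are shown because both genes had a higher level in the OVOL2 line than in PC3-EMT14 and because the stretches share a feature. RefSeq promoters (build GRCh38.p14) were at hand for 6 members, MMP7, MMP10, MMP14, TIMP1, PLAU and PLAUR, and not for MMP1, MMP2, MMP13 and TIMP2. Bases -120 to -11 before the start are printed 5′ to 3′ on the strand of the gene, at chr11:102651370-102651479 for MMP10 and chr11:102401489-102401598 for MMP7 in hg19, and capitals mark matches to the AP-1 letters TGANTCA and the TATA box letters TATAAA:
MMP10: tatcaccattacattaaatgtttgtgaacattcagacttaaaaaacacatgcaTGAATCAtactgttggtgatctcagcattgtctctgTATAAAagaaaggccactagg
MMP7: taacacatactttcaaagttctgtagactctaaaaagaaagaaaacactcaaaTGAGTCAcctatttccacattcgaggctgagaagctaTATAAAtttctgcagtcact
The AP-1 match stood at -67 to -61 in both, with the TATA match at -31 to -26 in MMP10 and at -30 to -25 in MMP7. PLAUR had 1 AP-1 match at -186 to -180. At N, where the searched letters allow any base, MMP7 and PLAUR had G and MMP10 had A. The upstream start of PLAU had no match, and the downstream start had 1 match to the E-box letters CAGGTG at -233 to -228. MMP14 and TIMP1 had none of these letters in 250 bases. Both strands were searched, and none of these motifs overlapped another. Over the 35116 RefSeq promoters of the same length, 6.57% held the AP-1 letters, 10.7% the TATA letters and 17.5% the E-box letters. The OVOL2 consensus named in the study was in 0.877% of them and in none of the 7 member promoters.

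Before the members, the lines were checked against their labels. OVOL1 was listed at 0.0243 FPKM in PC3-EMT14, 11.3 in PC3-EMT14-OVOL1, 0.0701 in PC3-EMT14-OVOL2 and 4.25 in PC3-Epi. OVOL2 stood at 0.383 FPKM in PC3-EMT14, 0.562 in PC3-EMT14-OVOL1, 831 in PC3-EMT14-OVOL2 and 9.91 in PC3-Epi. Each factor was therefore highest in the line labelled with it, and OVOL2 reached a far higher level than OVOL1. CDH1, which encodes E-cadherin, was at 1.00 FPKM in PC3-EMT14, 16.2 with OVOL1, 39.2 with OVOL2 and 50.6 for PC3-Epi. VIM, encoding vimentin, ran the other way, from 271 FPKM in PC3-EMT14 through 183 with OVOL1 and 76.9 with OVOL2 to 42.5 in PC3-Epi. Of 7 epithelial markers 6 were higher in PC3-Epi than in PC3-EMT14, 3 with OVOL1 and 4 with OVOL2. The 4 include ESRP1, a splicing regulator, whose entry in that table carries the Cuffdiff flag for a failed calculation (11.7 FPKM against 0.402), and 3 remain without it. Over all entries past the floor, 7.37% were higher in PC3-Epi, 2.43% with OVOL1 and 4.42% with OVOL2. ESRP1 and RAB25 passed the floor in PC3-Epi only through that line, where they were higher. CDH1 and ESRP1 likewise passed it only through the OVOL line in the OVOL1 and OVOL2 comparisons. RAB25, a gene of apical vesicle traffic, was at 24.2 FPKM in PC3-Epi but at 0.0566 in PC3-EMT14, 0.108 with OVOL1 and 0.122 with OVOL2. The mesenchymal list of 6 had 2 lower entries in PC3-Epi, 0 with OVOL1 and 4 with OVOL2. Over all entries past the floor, 8.34%, 1.54% and 2.93% were lower in the same order. ZEB1, in this list, passed the floor in PC3-Epi only through PC3-EMT14 (0.130 FPKM against 7.59). Among 6 prostate lineage markers, the kallikrein genes KLK3 and KLK2 were listed at 0 in every line, while HOXB13 was at 89.8 FPKM in PC3-EMT14 and 22.2 in PC3-Epi. TMPRSS2 went the other way, from 0.967 FPKM in PC3-EMT14 to 5.50 in PC3-Epi.

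Since macrophages and fibroblasts make many of the members, their markers were measured too. Of 12 macrophage markers, 11 stayed at or below 0.337 FPKM in every line and table, among them CD14, CD163 and PTPRC. CD68, a lysosomal gene that many other cells also use, was the most abundant, at 54.1 FPKM in PC3-EMT14, 51.2 with OVOL1, 57.8 with OVOL2 and 13.2 for PC3-Epi. The summed level of the 12 was 54.5 FPKM in PC3-EMT14 and 13.6 in PC3-Epi, nearly all of it CD68. TYROBP was listed at 0 in the OVOL1, OVOL2 and PC3-Epi lines and at 0.0207 FPKM in PC3-EMT14. Of 6 fibroblast markers COL1A1 was the most abundant, at 3.69 FPKM in PC3-EMT14 and 2.31 in PC3-Epi, and DCN was at 0.00924 and 0 FPKM. The fibroblast sum was 4.02 FPKM in PC3-EMT14, 2.76 with OVOL1, 4.15 with OVOL2 and 2.59 for PC3-Epi.

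The members spanned a wide range of levels. PLAU, at 984 FPKM in PC3-EMT14, ranked 32 of the 18328 entries listed above 0 in that line, and in PC3-EMT14-OVOL2 it ranked 10 of 18426. TIMP1 (347 FPKM), MMP14 (117), TIMP2 (112) and PLAUR (63.8) followed in PC3-EMT14. MMP1 was at 7.11 FPKM there, MMP13 at 0.701, MMP10 at 0.594 and MMP7 at 0.0731, and MMP2 was listed at 0. The abundant members were thus the membrane metalloproteinase, both inhibitors and the urokinase pair, while the secreted metalloproteinases were low apart from MMP1.

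**Figure D1:**
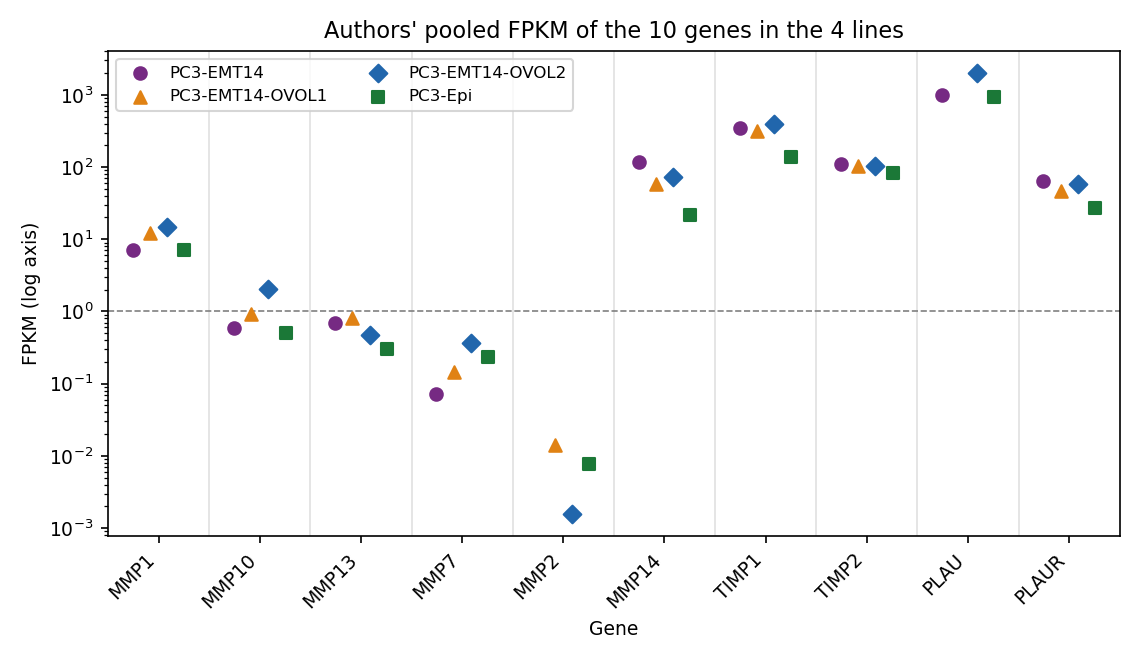
Authors' pooled FPKM (log axis) of the 10 genes in the 4 lines, 1 point per line, with PC3-EMT14 taken from its table with PC3-Epi and the dashed line at 1 FPKM. PLAU has no point for PC3-EMT14-OVOL1 and MMP2 none for PC3-EMT14, since both are listed at 0, and MMP14, TIMP1, TIMP2, PLAU and PLAUR lie above 20 FPKM wherever they have a point.

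The comparison of PC3-Epi with PC3-EMT14 sets 1 epithelial population beside 1 mesenchymal population. State cannot be told apart there from the co-culture and the selection of the lines. MMP14, TIMP1 and PLAUR were lower in PC3-Epi, by 5.34-fold, 2.56-fold and 2.34-fold, while PLAU and MMP1 stood at nearly the same level in both lines. Of the 10 members, 6 reached 1 FPKM in 1 of the lines (MMP1, MMP14, TIMP1, TIMP2, PLAU and PLAUR). Among these 0 were higher and 3 were lower in PC3-Epi, against 7.37% higher and 8.34% lower of all 12441 entries past the same floor. The median log2 ratio of the 6 members past the floor was -0.83, with 1 above 0 and 5 below, against -0.014 over all entries past it. With members under the floor, the 9 that had a ratio gave -0.43, against -0.041 over all 17268 entries with a ratio.

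In PC3-EMT14-OVOL1 no member of at least 1 FPKM with a usable value in both lines was past 2-fold. MMP14 was at 115 FPKM in PC3-EMT14 and 58.2 in PC3-EMT14-OVOL1, 1.97-fold lower and so just outside the 2-fold threshold, and MMP1 was 1.75-fold higher. By the rule, 0 of 6 members past the floor were higher and 1 was lower, against 2.43% and 1.54% of all 12197 entries. The single lower member was PLAU, whose 0 in the OVOL1 line came with the Cuffdiff flag for a locus with too many fragments to quantify, and is a failed estimate and not a level. Without it, 0 members were counted in either direction. The 5 members past the floor that had a ratio gave a median log2 ratio of -0.13 (1 above 0, 4 below), against -0.0018 over all entries past it. The sign of the median turned when members under the floor were added, with 0.097 over 8 members (4 above 0, 4 below), against -0.022 over all 17692 entries with a ratio.

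In PC3-EMT14-OVOL2, MMP10, MMP1 and PLAU were higher than in PC3-EMT14. The ratios to PC3-EMT14 were 3.59-fold for MMP10, 2.15-fold for MMP1 and 2.11-fold for PLAU. A pseudocount of 1 FPKM brought the log2 ratio of MMP10 from 1.84 to 0.96, under 2-fold. Thus 3 of the 7 members past the floor were higher and 0 were lower, against 4.42% higher and 2.93% lower of all 12307 entries. MMP10 passed the floor of 1 FPKM only through the OVOL2 line, where it is high, so its count rests on that line. The median log2 ratio of the 7 members past the floor was 0.22 (4 above 0, 3 below), against -0.040 over all entries past it, and without MMP10, left out after its values were seen, it was 0.077 (3 above 0, 3 below).

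Between the OVOL lines, 2 of 7 members past the floor were higher in PC3-EMT14-OVOL2 and 0 were lower, against 1.90% and 1.17% of all 12188 entries. MMP10 was 2.25-fold higher with OVOL2, and the other call, PLAU, again rested on the failed estimate in the OVOL1 line, without which 1 member was counted. Here too MMP10 passed the floor only through the OVOL2 line (2.06 FPKM against 0.918), and a pseudocount of 1 FPKM brought its log2 ratio from 1.17 to 0.68. The median log2 ratio of the 6 members past the floor that had a ratio was 0.34 (5 above 0, 1 below), against -0.040 over all entries past it, and 0.32 without MMP10. The construct and the level of the transduced factor also differed between the OVOL lines, and cannot be told apart from the factor itself. The 3 comparisons with PC3-EMT14 use the same PC3-EMT14 libraries, so their ratios are given side by side and are not independent of each other.

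**Figure D2:**
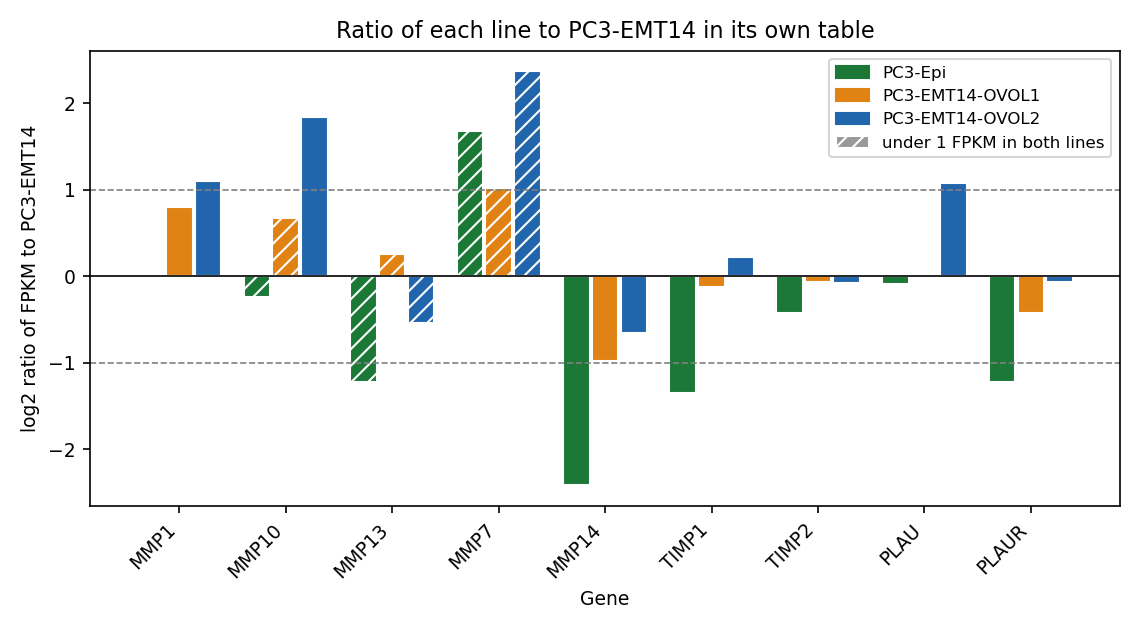
log2 ratio of FPKM to PC3-EMT14 for 9 members in PC3-EMT14-OVOL1, PC3-EMT14-OVOL2 and the epithelial line PC3-Epi, each from its own table, with hatched bars where both lines are under 1 FPKM and dashed lines at 2-fold. MMP14 lies below 0 in all 3 lines (-2.42 in PC3-Epi, -0.98 with OVOL1 and -0.66 with OVOL2), MMP10 with OVOL2 reaches 1.84, PLAU has no bar for OVOL1, and MMP2 is left out because it is listed at 0 in PC3-EMT14.

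Of the secreted metalloproteinases, MMP1 (chromosome 11, 102660641 to 102668966, minus strand) was the most abundant. Its level was 7.11 FPKM in PC3-EMT14 and 7.18 in PC3-Epi. In the other tables it was 6.96 FPKM in PC3-EMT14 against 12.2 with OVOL1, and 6.89 against 14.8 with OVOL2. Both OVOL lines therefore lay above both of the lines without a transduced factor. The ratio of MMP1 in PC3-Epi to PC3-EMT14 was 1.01, and as the spread between samples is unknown, no order of those lines is read for this gene. In the OVOL1 comparison 2.73% of all entries past the floor had a higher ratio than MMP1, and in the OVOL2 comparison 3.77%. MMP1 had 2 isoform entries, of which 1 was listed at 0.

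MMP10 (chromosome 11, 102641233 to 102651359, minus strand), the immediate neighbour of MMP1 in the cluster, was listed at 0.503 FPKM in PC3-Epi and 0.594 in PC3-EMT14. It was at 0.928 FPKM with OVOL1, against 0.582 in PC3-EMT14 in that table. With OVOL2 it was at 2.07 FPKM against 0.576. The order was OVOL2, OVOL1, PC3-EMT14, PC3-Epi, so the epithelial line PC3-Epi was lowest and the OVOL2 line highest. Every line but OVOL2 was under 1 FPKM, so the lower part of this order rests on few fragments of unknown number. A pseudocount of 1 FPKM brought the log2 ratio of PC3-Epi to PC3-EMT14 from -0.24 to -0.085. The log2 ratios of MMP10 were -0.24, 0.67 and 1.84 for PC3-Epi, OVOL1 and OVOL2.

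MMP7 (chromosome 11, 102391239 to 102401478, minus strand) stayed under 0.5 FPKM throughout. It was listed at 0.0731 FPKM in PC3-EMT14 and 0.235 in PC3-Epi, and in the tables of the OVOL lines at 0.145 with OVOL1 and 0.366 with OVOL2. PC3-EMT14 was the lowest of the 4 lines, but at such levels the ratios rest on few fragments of unknown number. MMP13 (chromosome 11, 102813721 to 102826463, minus strand), the last gene of the cluster, was at 0.701 FPKM in PC3-EMT14 and 0.300 in PC3-Epi. With OVOL1 it was at 0.823 FPKM and with OVOL2 at 0.469. Its order, with OVOL1 above OVOL2, was unlike that of MMP1, MMP10 and MMP7, all 3 of which were highest with OVOL2. MMP13 stayed under 1 FPKM in all 4 lines, so its order, like that of MMP7, rests on few fragments of unknown number.

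The remaining entries of the cluster were nearly silent. MMP20 and MMP27 were listed at 0 in all 4 lines. MMP3, the stromelysin closest to MMP10, did not exceed 0.0598 FPKM, MMP8 stayed at or below 0.0248 FPKM, and MMP12 at or below 0.0104 FPKM. Measurable levels in this region thus came from MMP1, MMP10, MMP13 and, lower, MMP7.

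MMP2 (chromosome 16, 55513081 to 55540586, plus strand), the substrate of the MMP14 complex, was listed at 0 in PC3-EMT14 in all 3 tables, at 0.00782 FPKM in PC3-Epi, 0.0140 with OVOL1 and 0.00158 with OVOL2. Cuffdiff flagged it as too low to test in each table. No direction is read from these values. MMP9, the other gelatinase, was also low, at 0.610 FPKM in PC3-EMT14, 0.795 in PC3-Epi, 0.408 with OVOL1 and 1.23 with OVOL2.

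MMP14 (chromosome 14, 23305793 to 23316803, plus strand) had the highest FPKM of the MMP genes examined in each line. PC3-EMT14 had 117 FPKM and PC3-Epi 21.9, a log2 ratio of -2.42. With OVOL1 it was at 58.2 FPKM against 115, a log2 ratio of -0.98. With OVOL2 it was at 72.0 FPKM against 113, a log2 ratio of -0.66. All 3 lines lay below PC3-EMT14, with PC3-Epi lowest and the OVOL lines in between. In the direct table the OVOL2 line was 1.25-fold above the OVOL1 line (72.0 against 57.5 FPKM). Of all entries past the floor, 2.13% had a lower ratio than MMP14 in PC3-Epi, 1.30% with OVOL1 and 5.39% with OVOL2.

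**Figure D3:**
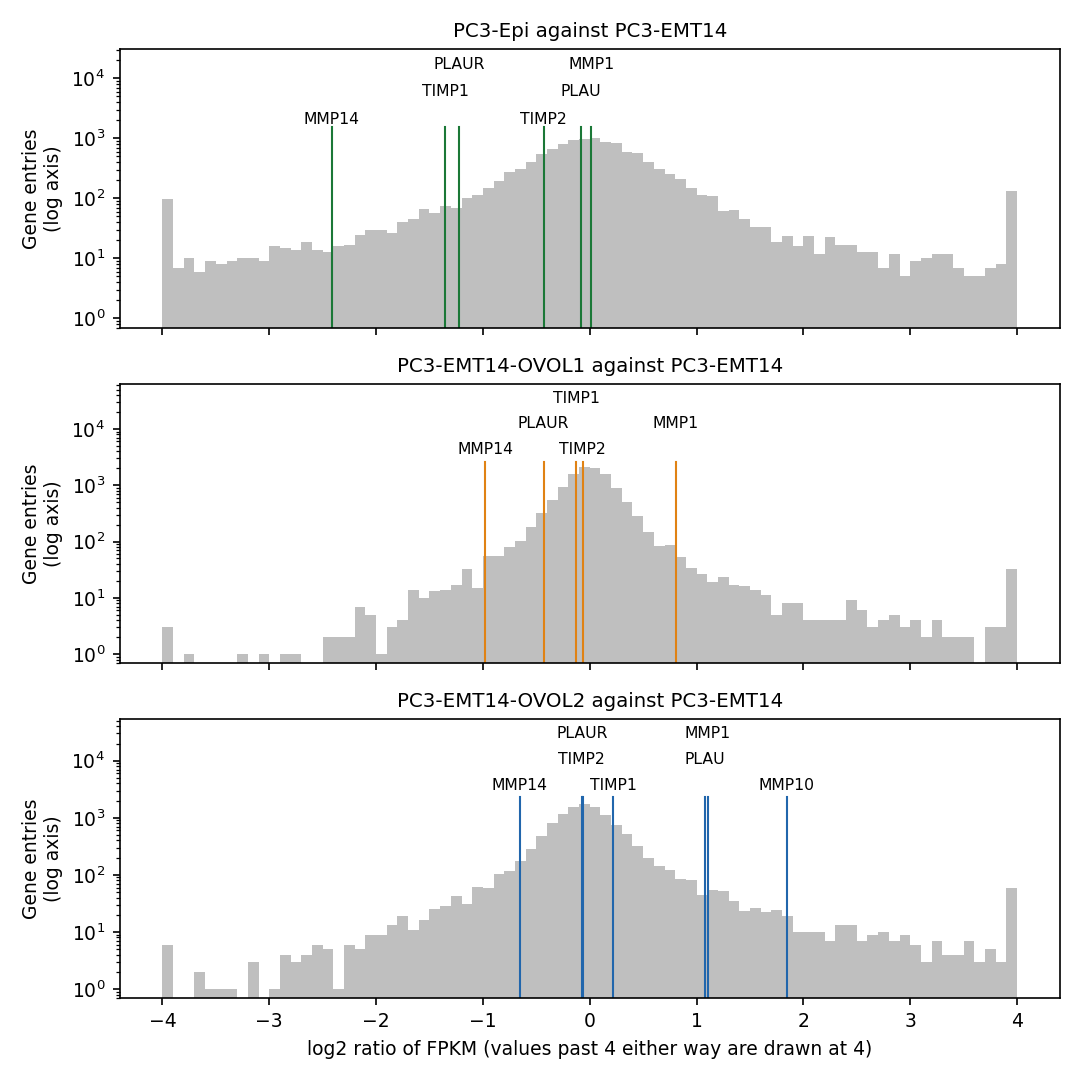
Number of gene entries (log axis) by log2 ratio of FPKM in the 3 comparisons with PC3-EMT14, for all entries of at least 1 FPKM in 1 line, with coloured lines at the members that passed the same floor. MMP14 lies in the lower tail in each panel (-2.42, -0.98 and -0.66), TIMP1 and PLAUR only in the PC3-Epi panel lie below -1, and MMP1, PLAU and MMP10 lie above 1 in the OVOL2 panel.

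TIMP1, a secreted inhibitor of most metalloproteinases, was at 347 FPKM in PC3-EMT14 and 136 in PC3-Epi. It was at 312 FPKM with OVOL1 against 340, and at 392 with OVOL2 against 337. Both OVOL lines thus lay within 1.17-fold of PC3-EMT14, while PC3-Epi was 2.56-fold below it. The gene lies at 47441807 to 47446188 on chromosome X, plus strand, inside SYN1, which is on the minus strand, and the files gave it a locus of 47420516 to 47479256 that it shares with ARAF and SYN1. SYN1 did not exceed 0.0805 FPKM in any line. ARAF was at 38.3 FPKM in PC3-EMT14 and 38.8 in PC3-Epi, so the lower level of TIMP1 was not shared by the other abundant entry of the locus.

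TIMP2 (chromosome 17, 76849059 to 76921472, minus strand), which both inhibits MMP14 and forms part of the complex that activates pro-MMP2, varied least. Its level was 112 FPKM in PC3-EMT14 and 82.7 in PC3-Epi, a log2 ratio of -0.43. With OVOL1 it was at 104 FPKM against 109, and with OVOL2 at 103 against 108. The OVOL lines differed by 1.01-fold in their direct table, and as the spread between samples is unknown, no order is read from this. As MMP14 differed more than TIMP2, MMP14 stood at 1.05 times the FPKM of TIMP2 in PC3-EMT14, 0.702 times with OVOL2, 0.558 times with OVOL1 and 0.265 times in PC3-Epi. MMP14 stood at 0.337 times the FPKM of TIMP1 in PC3-EMT14, and at 0.184 times with OVOL2, 0.187 times with OVOL1 and 0.161 times in PC3-Epi.

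PLAU (chromosome 10, 75668935 to 75677254 in the annotation, plus strand) was the most abundant member in every line with a value. PC3-EMT14 had 984 FPKM and PC3-Epi 927, 1.06-fold apart. With OVOL2 it was at 2016 FPKM against 954 in PC3-EMT14. The value in PC3-EMT14-OVOL1 is unknown, since both tables with that line list PLAU at 0 with the overload flag, in the gene table and in both isoform entries. The files gave PLAU a locus of 75669727 to 75682535, shared with the antisense gene C10orf55, which had 6.08 FPKM in PC3-EMT14, 5.27 in PC3-Epi and, in the OVOL2 table, 13.6 against 5.89 in PC3-EMT14. The methods name default alignment settings apart from a sensitivity option, and no stranded library type. Reads of this pair therefore cannot all be told apart where the genes overlap, from 75669727 to 75677254. Of the 2 isoform entries of PLAU, TCONS_00003990 held 97.2% of the FPKM in PC3-EMT14, 97.6% in PC3-Epi and 96.8% with OVOL2.

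PLAUR (chromosome 19, 44150248 to 44174502, minus strand), which encodes the urokinase receptor uPAR, followed the order PC3-EMT14, OVOL2, OVOL1, PC3-Epi, the same as MMP14. The step from PC3-EMT14 to OVOL2 was small for PLAUR, with a log2 ratio of -0.067 against -0.66 for MMP14. Of all entries past the floor, 46.1% had a lower ratio than PLAUR with OVOL2, against 5.39% for MMP14. The level of PLAUR was 63.8 FPKM in PC3-EMT14 against 27.3 in PC3-Epi. With OVOL1 it was at 46.3 FPKM against 62.4, and with OVOL2 at 59.0 against 61.8. Only PC3-Epi was past 2-fold below PC3-EMT14. PLAU and PLAUR did not vary together: PLAU stood at 15.4 times the FPKM of PLAUR in PC3-EMT14, 34.0 times in PC3-Epi and 34.2 times with OVOL2. In PC3-Epi this came with a lower PLAUR, and with OVOL2 with a higher PLAU.

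PLAUR had 3 isoform entries, for which the files give no transcript names. TCONS_00017967 held 71.2% of the PLAUR sum in PC3-EMT14, 66.0% in PC3-Epi, 69.1% with OVOL1 and 69.2% with OVOL2. TCONS_00017965 held 25.5%, 27.9%, 26.8% and 27.1% in the same order. Between PC3-EMT14 and PC3-Epi the entry TCONS_00017967 went from 45.4 to 18.0 FPKM, TCONS_00017965 from 16.3 to 7.61 FPKM and the minor TCONS_00017966 from 2.12 to 1.67 FPKM. All 3 entries were lower in PC3-Epi, and the same entry was the major one in each line.

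**Figure D4:**
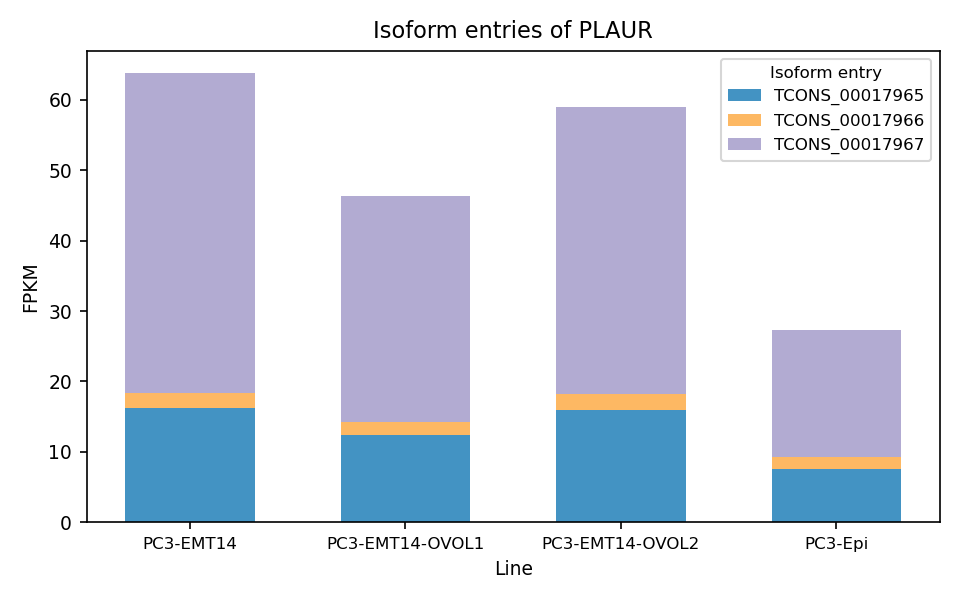
FPKM of the 3 isoform entries of PLAUR stacked for each line, with PC3-EMT14 from its table with PC3-Epi. The sum runs from 63.8 FPKM in PC3-EMT14 to 27.3 in PC3-Epi, with TCONS_00017967 the largest share in each line.

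Of 15 other genes of the plasminogen system 14 were found and 9 passed the floor. In PC3-Epi 0 were higher and 3 were lower (PLAT, SERPINB2 and LRP1), with OVOL1 0 in either direction, and with OVOL2 1 was higher (SERPINB2) and 1 was lower (PLAT). Of all entries past the floor, 7.37% were higher and 8.34% lower in PC3-Epi, 2.43% and 1.54% with OVOL1, and 4.42% and 2.93% with OVOL2. SERPINB2 passed the floor in PC3-Epi only through PC3-EMT14. The median log2 ratio of the 9 was -0.16 in PC3-Epi, -0.0014 with OVOL1 and 0.25 with OVOL2, against -0.014, -0.0018 and -0.040 over all entries past the floor, and between the OVOL lines 1 was higher and 1 was lower with OVOL2.

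PLAT, the gene of tissue plasminogen activator, was at 332 FPKM in PC3-EMT14 and 9.99 in PC3-Epi, 33.3-fold lower. With OVOL1 it was at 325 FPKM against 325, and with OVOL2 at 135 against 322. Only the OVOL2 line of the 2 transduced lines thus lay below PC3-EMT14. PLAU stood at 2.96 times the FPKM of PLAT in PC3-EMT14, 15.0 times with OVOL2 and 92.9 times in PC3-Epi.

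SERPINB2, encoding the urokinase inhibitor PAI-2, was at 11.3 FPKM in PC3-EMT14 and 0.959 in PC3-Epi, at 8.10 with OVOL1 against 11.1, and at 24.4 with OVOL2 against 11.0. It was thus lowest in PC3-Epi and, like PLAU, more than 2-fold higher with OVOL2 than in PC3-EMT14 (2.23-fold). LRP1, an endocytic receptor that clears urokinase bound to its inhibitors, was at 8.77 FPKM in PC3-EMT14 and 2.65 in PC3-Epi, with 7.01 under OVOL1 and 8.83 under OVOL2. PLG, the gene of plasminogen, which is made mainly in liver, stayed at or below 0.0312 FPKM.

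Among 17 other MMP genes, 6 passed the floor in PC3-Epi against PC3-EMT14, with 1 higher (MMP15) and 2 lower (MMP16 and MMP23B). With OVOL1 2 of 6 were higher (MMP15 and MMP28) and 1 lower (MMP16), and with OVOL2 3 of 7 were higher (MMP9, MMP15 and MMP28) and 1 lower (MMP16). MMP15 passed the floor only through the line in which it was higher, in each of the 3 comparisons, and MMP9 only through the OVOL2 line. MMP16 likewise passed it only through PC3-EMT14, where it was higher, in the PC3-Epi and OVOL2 comparisons. The median log2 ratios were -0.43, -0.12 and 0.098, against -0.014, -0.0018 and -0.040 over all entries past the floor. Of all those entries, 7.37% were higher and 8.34% lower in PC3-Epi, 2.43% and 1.54% with OVOL1, and 4.42% and 2.93% with OVOL2. MMP23B was at 5.17 FPKM in PC3-EMT14 and 1.93 in PC3-Epi, with 4.64 under OVOL1 and 3.80 under OVOL2. The other MMP genes past the floor that encode membrane-type enzymes like MMP14, named here after their values were seen, were MMP15, MMP16, MMP17 and MMP24. MMP17, the most abundant of them in each line (8.53 FPKM in PC3-EMT14, 5.62 in PC3-Epi), and MMP24 (2.08 and 1.75 FPKM) were within 2-fold in every comparison. MMP15 was at 0.614 FPKM in PC3-EMT14, 3.94 in PC3-Epi, 1.85 with OVOL1 and 2.82 with OVOL2, whereas MMP16 was at 2.90, 0.566, 1.24 and 0.752 FPKM in the same order. Between the OVOL lines MMP9 (1.23 FPKM with OVOL2 against 0.403 with OVOL1) was the 1 entry of this list past both 2-fold and the floor of 1 FPKM, which it reached only with OVOL2. In that comparison 1.90% of all entries past the floor were higher and 1.17% lower with OVOL2.

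**Figure D5:**
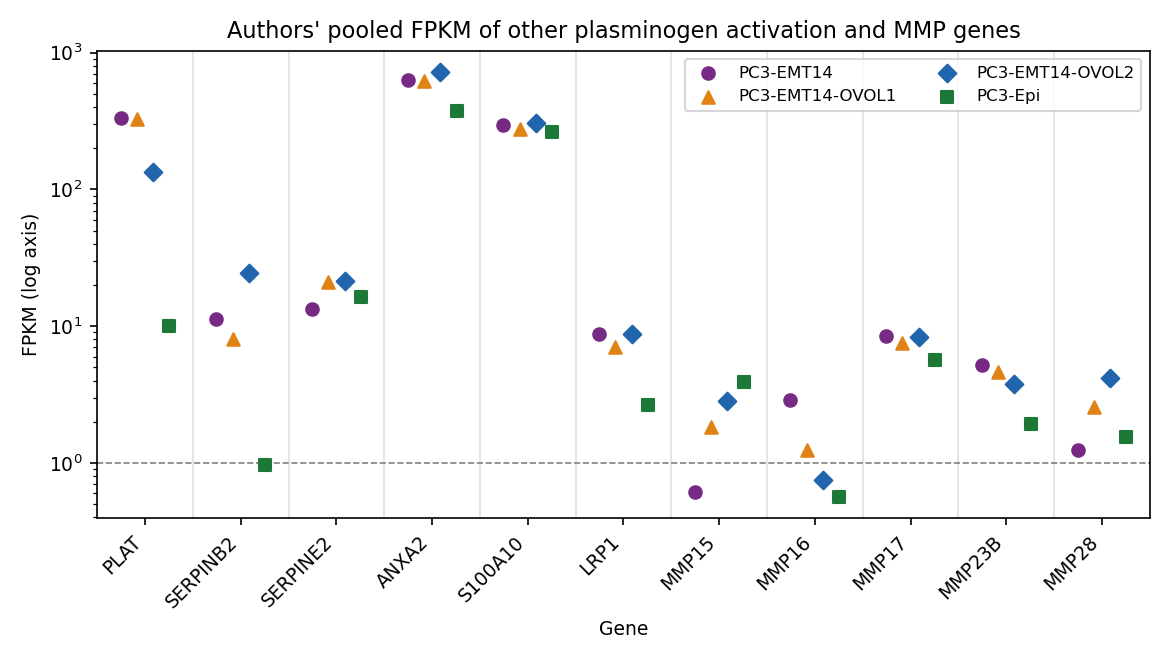
Authors' pooled FPKM (log axis) of 11 other plasminogen activation and MMP genes in the 4 lines, 1 point per line, with the dashed line at 1 FPKM. PLAT and SERPINB2 are far lower in PC3-Epi (9.99 and 0.959 FPKM) than in PC3-EMT14 (332 and 11.3), and MMP15 and MMP16 run in opposite orders.

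Of 12 further metalloproteinase inhibitors and partners, 8 passed the floor. THBS1 and LCN2 were higher in all 3 comparisons with PC3-EMT14, and SPOCK1 and TIMP4 were lower in PC3-Epi. LCN2 passed the floor only through the line in which it was higher each time. LCN2, whose product lipocalin 2 binds and stabilises MMP9, was at 0.526 FPKM in PC3-EMT14, 90.1 in PC3-Epi, 31.6 with OVOL1 and 33.4 with OVOL2. THBS1, the gene of the matrix glycoprotein thrombospondin 1, was at 6.29 FPKM in PC3-EMT14, 126 in PC3-Epi, 15.8 with OVOL1 and 56.4 with OVOL2. Among the inhibitors, TIMP4 was at 5.71 FPKM in PC3-EMT14 and 2.35 in PC3-Epi, with 5.39 under OVOL1 and 5.36 under OVOL2, and TIMP3 did not exceed 0.00914 FPKM. SPOCK1, a proteoglycan of the testican family, was at 18.3 FPKM in PC3-EMT14, 4.67 in PC3-Epi, 11.2 with OVOL1 and 10.3 with OVOL2. The median log2 ratios of the 8 were -0.088, -0.060 and 0.11, against -0.014, -0.0018 and -0.040 over all entries past the floor. Among all those entries, 7.37% were higher and 8.34% lower in PC3-Epi, 2.43% and 1.54% with OVOL1, and 4.42% and 2.93% with OVOL2.

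AP-1, whose searched letters TGANTCA stand upstream of MMP10, MMP7 and PLAUR, is a dimer of FOS, JUN and ATF family proteins. Of 9 subunit genes 6 passed the floor, and ATF3 was higher in each comparison with PC3-EMT14, while 0 were lower. ATF3 was at 4.93 FPKM in PC3-EMT14, 27.2 in PC3-Epi, 10.1 with OVOL1 and 33.0 with OVOL2. FOSL1, the most abundant subunit gene, was at 294 FPKM in PC3-EMT14, 220 in PC3-Epi, 329 with OVOL1 and 276 with OVOL2. JUN was at 29.7 FPKM in PC3-EMT14 and between 14.9 and 16.2 in the other 3 lines, short of 2-fold. JUNB and JUND lay above PC3-EMT14 in the other 3 lines, also short of 2-fold. With OVOL2 they were at 43.1 FPKM against 22.8 and at 27.6 against 17.2. The median log2 ratios of the 6 were 0.18, 0.22 and 0.48, against -0.014, -0.0018 and -0.040 over all entries past the floor. Over all those entries, 7.37% were higher and 8.34% lower in PC3-Epi, 2.43% and 1.54% with OVOL1, and 4.42% and 2.93% with OVOL2. The part of these subunits in the levels of MMP10, MMP7 and PLAUR was not tested.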

How the data were processed

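RNA-seq of 10 samples was deposited as 8 Cuffdiff tables, a gene table (23170 entries) and an isoform table (37557 entries) for each of 4 comparisons. The authors aligned 50-base paired-end reads to the hg19 transcriptome and pooled the samples of a line, so the deposited values are 1 FPKM per line and comparison, normalized within each pair. The tables also hold the authors' fold changes, test statistics, p-values and q-values, which were not used. The deposited status flag (other text) was read to recognise failed estimates. Depth per sample is unknown and no per-sample column was left unused (0).

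Ratios were taken within a table, without a pseudocount, using pandas 2.3.3 and numpy 2.4.6 under Python 3.11.15 (figures, matplotlib 3.10.9). Higher or lower means at least 2-fold with at least 1 FPKM in the higher line, and a 0 against a value past that floor counts. The counting was tested on simulated data. All 10 members are named in each comparison with PC3-EMT14, and only some of them in the direct comparison of the OVOL lines. Of the wider MMP, inhibitor, plasminogen and AP-1 lists, genes of at least 5 FPKM and 2-fold in 1 comparison are named, at most 8 per list, and others, like the cell type markers named, only to describe a count or a neighbour. The members and lists were chosen with earlier results of these data known. Promoters came from RefSeq and were placed on hg19 by unique exact matches. Protein sequences were not used here, and some genes of the wider lists are not reported here.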

Additional observations from a re-analysis of the deposited data

How the results depend on the processing

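The values carry no replicate error, so the counts of members past 2-fold are descriptions. No paired analysis was possible because the tables hold 1 pooled value per line, and for the same reason no sample could be left out in turn. In PC3-Epi against PC3-EMT14 the count of 3 became 1 at a 4-fold threshold (MMP14), 5 with a floor of 0.1 FPKM and 6 with no floor. With OVOL1 the count of 1 became 3 at a 1.5-fold threshold (MMP1 higher, MMP14 and PLAU lower). It was 2 with a floor of 0.1 FPKM (MMP7 higher, PLAU lower) and 3 with no floor (MMP7 and MMP2 higher, PLAU lower). Each of these counts holds the failed estimate of PLAU. The count was 0 when only entries with status OK were used. With OVOL2 the count of 3 became 0 at a 4-fold threshold, 4 at 1.5-fold (MMP14 lower), 4 with a floor of 0.1 FPKM, 5 with no floor, and 2 with a floor of 5 FPKM or a pseudocount of 1 FPKM, both without MMP10. Between the OVOL lines the count of 2 became 1 at a 4-fold threshold, a floor of 5 FPKM or a pseudocount of 1 FPKM. That 1 was PLAU each time, which rests on the failed estimate, so no member with a usable value was counted there. With status OK alone the 1 left was MMP10. The count was 3 with a floor of 0.1 FPKM and 4 with no floor, PLAU among them. The counts that came with a lower floor or none added MMP13, MMP7 or MMP2, all under 1 FPKM. Of the member values recomputed under alternatives, 146 moved by at most 0.1 on the log2 scale and 22 by more, all 22 with a pseudocount. With a pseudocount of 0.1 FPKM 8 values moved by more and 27 did not. With 1 FPKM 14 did and 21 did not. The isoform sums, the centring, the other tables of PC3-EMT14 and the ratio through PC3-EMT14 could hardly move a value. Their part of the 146 therefore says nothing about stability. The sign of 1 member value changed, TIMP2 between the OVOL lines, from -0.0079 to 0.032 when centred on the median of all entries. Depth is unknown, so how far it limits the low members cannot be given.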

Other observations

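The flag that removed PLAU from the OVOL1 line was rare. It stood on 3 gene entries in the comparison of OVOL1 with PC3-EMT14 (PLAU, its antisense neighbour C10orf55 and the keratin gene KRT81), on 1 with OVOL2 (KRT81), on 3 between the OVOL lines and on 0 in PC3-Epi against PC3-EMT14. KRT81 was listed at 0 in both OVOL lines and at 1714 FPKM in PC3-EMT14 in the OVOL1 table, so its levels there are unknown in the same way as that of PLAU.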
